A study of Macaca mulatta with 6 samples.

Results

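The genes described here encode the proteins of the cytosolic ribosome, and they were followed in the retinas of 3 adult male rhesus macaques in which the intraorbital optic nerve of 1 side had received gamma knife irradiation of 15 Gy. Members were the probe sets whose platform gene symbol is RPL or RPS followed by a number, with an A, X, Y, L or P suffix allowed, together with RPLP0 to RPLP2 and RPSA, and the RPS6K kinases and RPS27L were left out. The rule took 66 probe sets of 39 genes, out of 14132 genes that have a probe set with 1 symbol. The treated retinas lay on the side of the irradiated nerve and the control retinas on the other side, so each animal gave 1 array to each group. Arrays with the same replicate number were taken as 1 animal, which the labels do not state. All 6 retinas were collected 24 h after irradiation, and RNA was taken from the temporal part of the retina without the retinal pigment epithelium (RPE). The control retinas were not free of radiation, since the eyeball of the control side also received a dose, lower than that of the treated side. The values were log2 MAS 5.0 signals of the Affymetrix Rhesus Macaque Genome Array, and a difference is always treated minus control on the log2 scale.

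The cytosolic ribosome consists of a large and a small subunit, each built from ribosomal RNA and a fixed set of proteins that are made in near equal amounts. Large subunit genes carry the symbol RPL and small subunit genes RPS, and RPLP0, RPLP1 and RPLP2 form the stalk that recruits translation factors. The mRNAs share a pyrimidine tract at their start through which growth signals control their translation together, and their levels are high in most tissues, neural retina included. When ribosome assembly is disturbed, free RPL5 and RPL11 bind MDM2 and stabilise p53, which is known as nucleolar stress. Of the 39 genes, 20 belonged to the large subunit, 2 to the stalk and 12 to the small subunit, and 5 were paralogs (RPL3L, RPL7L1, RPL22L1, RPL26L1 and RPL36AL), close copies of a large subunit gene. RPL11, RPL13A, RPLP0 and RPSA had no probe set of their own among the members, and as single genes they were not analysed here.

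The median log2 signal of all 52024 probe sets lay between 6.69 and 7.03 on the control arrays and between 6.44 and 6.98 on the treated arrays, with the lowest value on the treated array of replicate 2. Rod genes, which mark the most abundant photoreceptors, had a median mean signal of 14.98 over the 5 measured. The summed signal of the microglia markers, all 6 measured, lay between 10.07 and 10.41 on the control arrays and between 10.63 and 10.93 on the treated arrays, and all 6 had differences above 0. For 5 leukocyte markers the summed signal lay between 10.97 and 11.84 in controls and between 11.998 and 13.58 in treated retinas, with 5 of 5 above 0. The 5 rod markers gave 17.12 to 17.32 and 16.90 to 17.23, with 0 of 5 above 0. Ganglion cells send their axons through the optic nerve, and their 3 measured markers were all above 0, at summed signals of 12.17 to 12.61 in controls and 12.41 to 12.76 in treated retinas. Of the 3 Müller glia markers 1 was above 0, with 15.33 to 15.695 in controls and 15.18 to 15.54 in treated retinas. The 3 RPE markers, of which RLBP1 is also a Müller glia marker, had 0 above 0, with 13.055 to 13.54 and 12.53 to 13.17. Cone and erythrocyte markers had 0 of 4 and 1 of 2 above 0. None of these lists held a marker at the floor of the scale or a marker past the adjusted threshold, and the part of other cells in the results on ribosomal protein genes was not tested. In a whole tissue, fewer cells of a type and less RNA per cell cannot be told apart.

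The ribosomal protein genes as a whole differed little between treated and control retinas. The fitted difference was above 0 in 33 of 39 genes, each represented by the probe set of highest mean signal, its brightest, and the median was 0.089. Over all 14132 genes the median was 0.032, and over all probe sets −0.038. Only RPL24 passed an adjusted p under 0.05 in the limma fit on pairs, so 1 of 66 probe sets was higher and 0 were lower, where 0.110% of all probe sets were higher and 0.00192% lower. Without adjustment, 4 of 66 had a p under 0.05 and were higher (RPL24, RPL22L1, RPL36AL and 1 of the probe sets of RPL13) and 0 were lower, beside 2.97% higher and 3.77% lower among all probe sets. These unadjusted calls depended on the fit. Leaving out 1 replicate gave 1 to 6 higher, the fit without the pairing gave 0, and the methods' paired t-test gave 4 higher, of which only RPL24 was shared (the others were RPS7, RPS28 and 1 probe set of RPS16), and 1 lower, RPL32. By direction alone, 15 of 66 were higher in 3 of 3 pairs and 3 were lower in 3 of 3, against 13.0% and 16.1% of all probe sets. Among probe sets with a mean log2 signal of 10 or above, these counts were 11 and 2 of 46 members, beside 20.2% and 18.2% of the 8259 other probe sets of that signal.

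**Figure D1:**
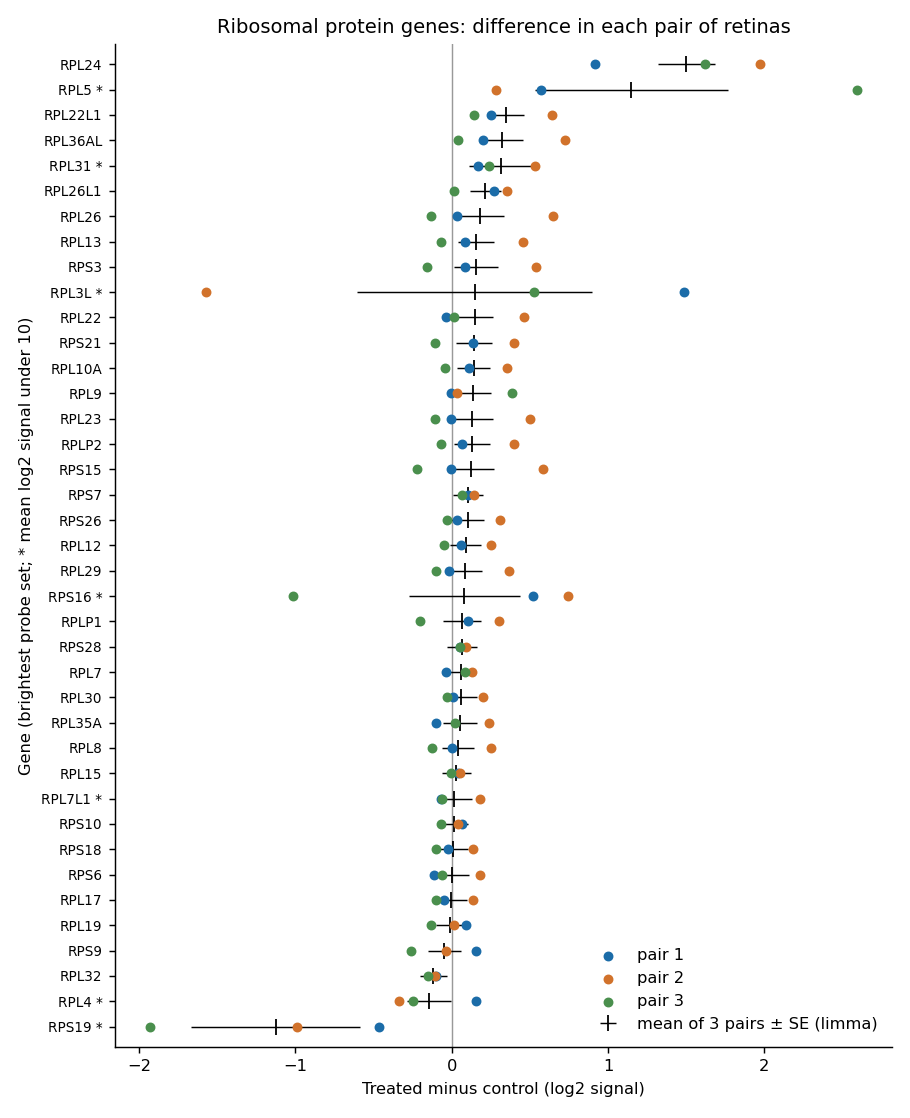
Treated minus control difference in log2 signal (horizontal axis) for the 39 ribosomal protein genes (vertical axis), 1 point per pair of retinas and a bar for the limma mean with its SE. RPL24 lies apart at 1.50, most other genes lie within a narrow band around 0.089, and the pair 2 point is the rightmost in 30 of 39 genes.

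The small upward shift came mostly from 1 animal. Within pairs, the median difference of the 39 genes was 0.061 in pair 1, 0.25 in pair 2 and −0.062 in pair 3. In pair 2, 34 of 39 genes were above 0, compared with 25 in pair 1 and 13 in pair 3. The largest of the 3 differences fell in pair 2 for 30 of 39 genes and the lowest in pair 3 for 27, so the members moved together within an animal but not the same way in all animals. Over all 14132 genes the pair medians had the same order at smaller size, at 0.036, 0.069 and −0.0036. Over all probe sets pair 2 ran the other way, with a median of −0.14. Among the 1771 other probe sets with a mean signal of 12 or above, the median of pair 2 was 0.066, with 57.9% above 0. The 31 members of that signal gave 0.30. Without replicate 2 the median of the 39 genes was −0.012, with 17 of 39 above 0, and without replicate 1 or replicate 3 it was 0.11 or 0.16. The SD of the 3 pair medians, 0.16, exceeded the median itself.

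For 23 of 39 genes, both arrays of replicate 1 gave the lowest signals of the 6 arrays. Such an order was found in 44.0% of the 1771 other probe sets of a signal of 12 or above and in 14.4% of all probe sets. Both arrays of replicate 1 were highest in 12.2% and 22.6% of these. The order was thus frequent among high signals outside the members too, though not in most of them. Members took 1.29% of the summed signal on the control array of replicate 1 and 1.33% on its treated array. The shares were 1.48% and 1.78% for replicate 2, and 1.62% and 1.61% for replicate 3. The treated array of replicate 2 held the highest share, while in the other animals both retinas had nearly the same share. For the 45 members with a signal of 10 or above other than RPL24, the median size of the difference between the retinas of an animal was 0.066, 0.30 and 0.085 for replicates 1 to 3. Between control retinas of different animals it was 0.33 for replicates 1 and 2, 0.36 for replicates 1 and 3 and 0.17 for replicates 2 and 3.

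**Figure D2:**
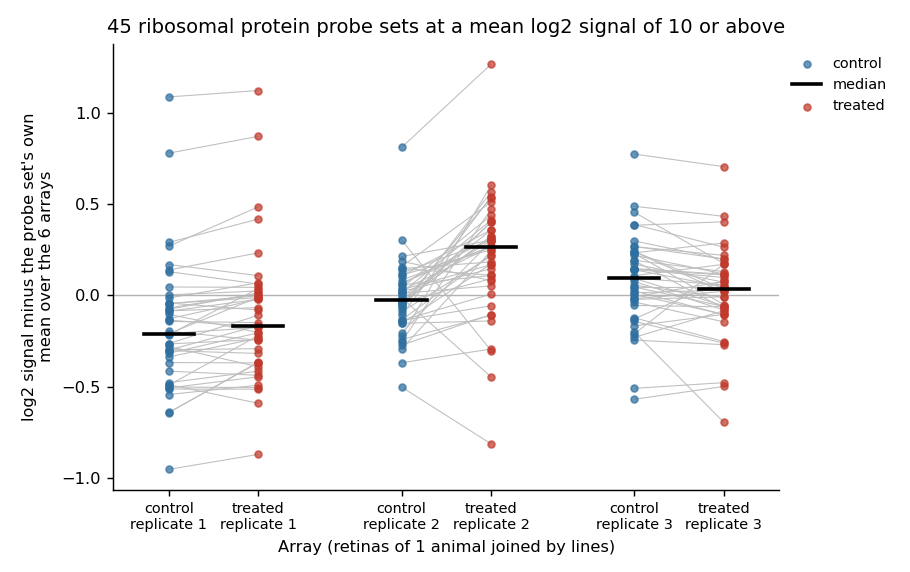
Log2 signal of 45 ribosomal protein probe sets with a mean signal of 10 or above (RPL24 left out) on each of the 6 arrays, as the deviation from the probe set's own mean, with retinas of 1 animal joined and a bar at the median. The replicate 1 arrays lie low in both groups, and the treated array of replicate 2 lies above its control for most probe sets, whereas replicate 3 shows no rise.

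RPL24, a protein of the large subunit at the interface with the small one, was the outlying member. Its probe set had signals of 10.42, 11.48 and 12.15 in the control retinas of replicates 1 to 3 and of 11.34, 13.45 and 13.77 in the treated retinas. Each treated retina lay above its own control, but the groups overlapped, because the treated retina of replicate 1 lay below the controls of replicates 2 and 3. The signal rose by 0.92, 1.97 and 1.62 in the 3 pairs. The fitted difference was 1.50 (SE 0.18), a 2.83-fold rise with an adjusted p of 0.0427 in limma. This was a larger difference than that of any other member. The SE of RPL24 was lowered by the variance prior of the fit and is smaller than the 3 pairs alone would give. The probe set was also among the most variable between animals. Its control retinas spanned 1.73, as wide as the widest of the other 45 members of a signal of 10 or above, whose median span was 0.41. The call stayed in each fit without 1 of the replicates, at differences of 1.27 to 1.79, and after quantile normalization or centring of the arrays. It was lost without the pairing (adjusted p = 0.99994 in limma), with a variance prior free of any trend (adjusted p = 0.854 in limma) and in the methods' paired t-test after adjustment (adjusted p = 0.879).

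A further probe set that reads RPL24 did not show this rise. It is annotated to RPL24 together with 3 other loci, and its signals were 13.61, 13.82 and 14.06 in the control retinas and 13.65, 14.19 and 13.997 in the treated retinas. The pairs differed by 0.047, 0.37 and −0.059, highest in pair 2 and lowest in pair 3 as in most members, and the fitted difference was 0.12 (SE 0.11, adjusted p = 0.827 in limma). Both probe sets were low in replicate 1, but a rise of the size seen in the first one was absent from the second. Which transcripts each of them reads was not tested here, since probe sequences were not used. The genes next to RPL24 in the gene table of assembly T2T-MMU8v2.0 also gave no call. Their 6 probe sets ran from −0.96 for NXPE3 to 0.20 for PCNP, with ZBTB11 at 0.031 and 0.15 and CEP97 at −0.46 and −0.049. The first probe set of ZBTB11 had a mean signal of 10.2 (SE 0.11). All the others were dim, with mean signals of 5.92 to 6.83 and an SE of 0.30 to 0.54, so the lack of a call says little there.

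RPS27L, a paralog of the small subunit gene RPS27 and a known target of p53, was left out of the members by name. A probe set that reads it together with 1 other locus rose as well. Its signals were 11.22, 11.62 and 11.83 in the control retinas and 11.97, 12.86 and 12.69 in the treated retinas. The groups did not overlap, and each treated retina was higher than every control. The difference was 0.95 (SE 0.11, higher in 3 of 3 pairs, adjusted p = 0.0427 in limma), a 1.94-fold rise. That call was lost without replicate 1 (adjusted p = 0.231 in limma) and after centring of the arrays (adjusted p = 0.0779 in limma), as well as in the fits that lost RPL24. The probe sets annotated to RPS27L alone had mean signals of 5.46 and 5.199 and gave 0.34 (SE 0.51) and 0.72 (SE 0.65), and neither was called (adjusted p = 0.900 and 0.824 in limma).

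**Figure D3:**
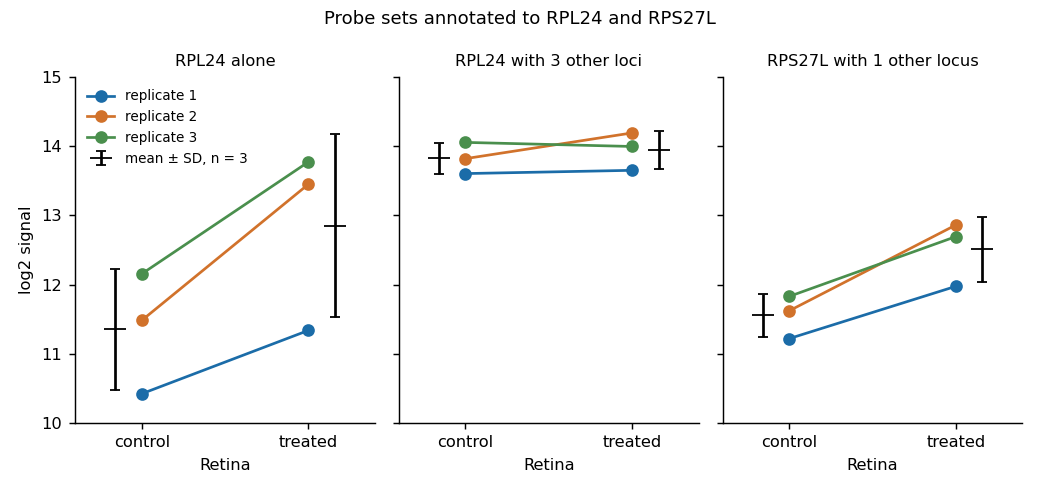
Log2 signal in control and treated retinas for the probe set annotated to RPL24 alone, the probe set annotated to RPL24 with 3 other loci, and the probe set annotated to RPS27L with 1 other locus, with lines joining the retinas of an animal and bars for the mean and SD of 3 arrays. The first and the last rise in all 3 animals, by 1.50 and 0.95 on average, while the second stays within 0.37 of its control.

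Of the 20 large subunit genes, 16 were above 0, with a median of 0.086 and pair medians of 0.020, 0.25 and −0.045, and RPL24 apart none was called in either direction. Among those measured only by a dim probe set, RPL5 and RPL31 had larger values, of 1.15 (SE 0.61) and 0.31 (SE 0.20). RPL26, which also binds the mRNA of p53, had control signals of 14.09, 14.03 and 14.02 and treated signals of 14.13, 14.68 and 13.89. The treated retina of replicate 2 alone stood out, and the difference of 0.18 (SE 0.15) lay near its error. RPL23, an MDM2-binding protein, had control signals of 14.35, 14.10 and 14.27 and treated signals of 14.35, 14.60 and 14.16. It showed the same pattern, highest in the treated retina of replicate 2, with pairs of −0.0017, 0.50 and −0.11 and a difference of 0.13 (SE 0.13). The second probe set of RPL23 had pairs of 0.27, 0.83 and −0.28, for a difference of 0.27 (SE 0.19). For RPL13 the brightest probe set read 12.13, 13.03 and 13.86 in controls and 12.22, 13.49 and 13.79 in treated retinas, a difference of 0.16 (SE 0.12), or 0.0061 without replicate 2. The control retinas of this probe set spanned 1.73, and the retinas of an animal lay at most 0.45 apart. RPL22 gave 0.15 (SE 0.12), RPL7 0.059 (SE 0.092) and RPL9 0.14 (SE 0.11), and of these RPL9 alone had its largest difference in pair 3.

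Differences below 0 were few among large subunit genes and small in size. RPL32 was the 1 large subunit gene whose brightest probe set was lower in all 3 pairs, with control signals of 12.90, 13.19 and 13.10 and treated signals of 12.80, 13.09 and 12.95. The pairs were alike, at −0.10, −0.11 and −0.15, and the difference of −0.12 (SE 0.085, adjusted p = 0.785 in limma) did not pass the threshold. Its second probe set read 11.10, 9.51 and 9.81 in controls and 11.13, 9.20 and 9.32 in treated retinas, so that only replicates 2 and 3 were lower, for a difference of −0.26 (SE 0.13). RPL4, which lines the exit tunnel of the ribosome, gave −0.15 (SE 0.14). RPL17 and RPL19 were at −0.0037 and −0.0084, and both came out above 0 when each array was centred on its median.

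Both measured stalk genes followed the module. RPLP1 had control signals of 14.44, 14.77 and 15.02 and treated signals of 14.54, 15.07 and 14.81, and RPLP2 had 13.46, 13.95 and 14.21 against 13.52, 14.35 and 14.14. In each gene the treated retina was slightly higher in replicates 1 and 2 and lower in replicate 3, and the differences were 0.068 (SE 0.12) and 0.13 (SE 0.11). RPLP0, their anchor on the ribosome, was read only by probe sets that hold other loci too, and the strongest of these gave 0.10 (SE 0.10).

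Small subunit genes gave a median of 0.073, with 10 of 12 above 0 and pair medians of 0.058, 0.16 and −0.10, and 0 of 12 passed the threshold in limma, adjusted or not. RPS6, the substrate of the S6 kinases, had control signals of 14.39, 14.75 and 14.86 and treated signals of 14.28, 14.93 and 14.80 at its brightest probe set, a difference of 0.0031 (SE 0.10). Its second probe set read 14.09, 13.93 and 13.96 in controls and 14.11, 14.26 and 14.17 in treated retinas, and there the groups did not overlap, although the difference of 0.19 (SE 0.10, adjusted p = 0.752 in limma) was not called. RPS3, which also acts in DNA repair, read 14.57, 14.29 and 14.66 in controls and 14.66, 14.83 and 14.51 in treated retinas. The treated retina of replicate 2 was again the high one, and the difference was 0.16 (SE 0.14). RPS28 gave 0.051, 0.089 and 0.053 in the 3 pairs, and RPS7, a further MDM2-binding protein, gave 0.11, 0.14 and 0.062. Both were higher in every pair by a small and even amount, and neither passed the adjusted threshold. RPS18 gave 0.0051 (SE 0.10), and RPS9 gave −0.048 (SE 0.11), which turned positive when the arrays were centred.

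The 5 paralogs, copies of large subunit genes with their own loci, all had differences above 0, and their median of 0.21 was the highest of the groups. RPL22L1, which can replace RPL22 in the ribosome, had control signals of 11.38, 11.52 and 11.36 and treated signals of 11.63, 12.16 and 11.51. Each treated retina was higher than its control, but the groups just overlapped, and the difference was 0.35 (SE 0.12, unadjusted p = 0.0182 and adjusted p = 0.692 in limma), or 0.20 without replicate 2. Its partner RPL22 gave 0.15 and was higher in replicate 2 above all, with pairs of −0.040, 0.46 and 0.014. RPL36AL, a near copy of RPL36A, read 11.95, 11.91 and 12.14 in controls and 12.15, 12.63 and 12.19 in treated retinas, for a difference of 0.32 (SE 0.14, adjusted p = 0.736 in limma), or 0.12 without replicate 2. Its groups did not overlap, but the gap between them was small and pair 3 differed by only 0.041. RPL26L1 gave 0.21 (SE 0.10) and was higher in 3 of 3 pairs, as its counterpart RPL26 was in 2 of 3. RPL7L1 gave 0.016 (SE 0.11) and RPL7 0.059, and RPL3L, the form of RPL3 found in striated muscle, had a mean signal of 4.93 and a difference of 0.15 (SE 0.75). The difference between a paralog and its counterpart was not tested.

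Most of the large values among the members came from dim probe sets. The 20 members with a mean signal under 10 ran from −1.13 to 1.40, and their median SE was 0.36. The 45 members of a signal of 10 or above other than RPL24 ran from −0.26 to 0.35, with a median SE of 0.10. RPS19, a protein needed for maturation of the small subunit, had 1 probe set with control signals of 6.09, 6.005 and 6.15 and treated signals of 5.63, 5.02 and 4.23. The treated retinas lay below all controls, and the difference was −1.13 (SE 0.54, lower in 3 of 3 pairs, adjusted p = 0.752 in limma). RPL5 had 1 probe set of its own, which read 5.51, 6.18 and 3.27 in controls and 6.08, 6.46 and 5.86 in treated retinas. Its difference of 1.15 (SE 0.61, adjusted p = 0.752 in limma) rested on the single low control of replicate 3, where the pair differed by 2.59, and was 0.43 without that replicate. RPL31 gave 0.31 (SE 0.20) at a mean signal of 7.81 and was higher in 3 of 3 pairs.

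**Figure D4:**
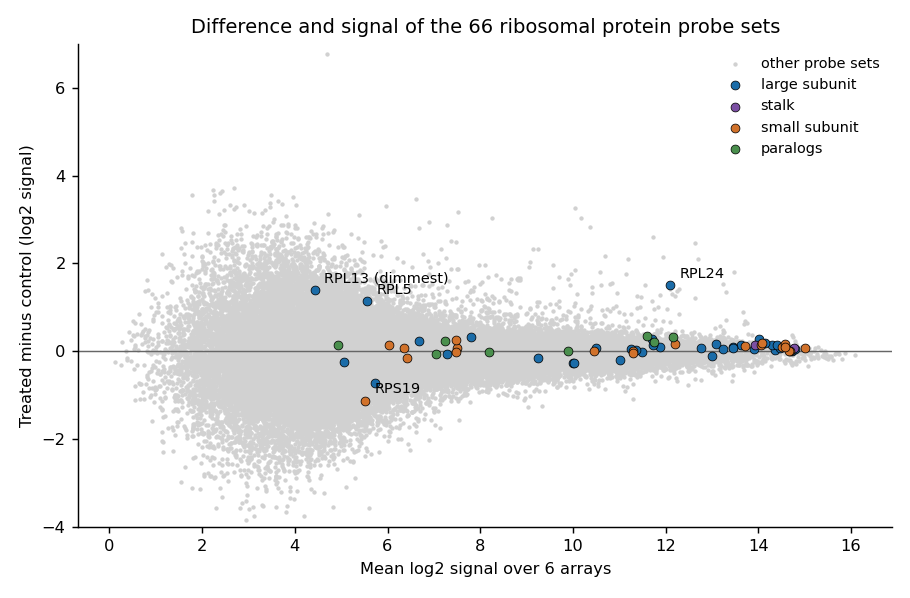
Treated minus control difference (vertical axis, log2) against the mean log2 signal over 6 arrays (horizontal axis) for the 66 ribosomal protein probe sets, colored by group, over all other probe sets in grey. Members at a signal of 10 or above hug the zero line except RPL24 at 1.50, and the wide values of RPL13, RPL5 and RPS19 lie at signals under 6, where the grey cloud is widest.

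For the 12 genes with at least 2 probe sets at 10 or above, the gap between their differences had a median of 0.14 and reached 0.40 for RPL9, whose second probe set gave −0.26 (SE 0.12, lower in 3 of 3 pairs). RPL26 came next, with a second probe set at −0.21 (SE 0.14) against 0.18 for the first, and the pair differed most in replicate 2. RPL13 was the 1 gene whose probe sets lay more than 1 apart. Its 3 probe sets of a signal of 10 or above gave 0.16, 0.10 and 0.27, while the 2 dim ones gave −0.73 (SE 0.59) and 1.40 (SE 0.69). The dimmest read 3.04, 4.12 and 4.03 in controls and 4.53, 4.90 and 5.95 in treated retinas, with no overlap of the groups. RPS16 had 5 probe sets, all with a mean signal under 8, which ran from −0.16 to 0.25. Members with names that mark probes shared between transcripts numbered 17 of 66, beside 4074 of all 52024 probe sets. Such sharing is a common trait of this gene family with its many processed copies. The signal of near-identical copies cannot be separated in such probe sets.

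Ribosomal protein genes that share a probe set with other loci gave the same picture. The 31 such probe sets had a median difference of 0.095, with 25 above 0, pair medians of 0.029, 0.22 and −0.042, and 0 called by limma in either direction (0 also at an unadjusted p under 0.05 and in the methods' t-test after adjustment). Those that hold RPL5 had mean signals of 14.50 and 13.49 and gave 0.036 (SE 0.094) and 0.19 (SE 0.092), unlike the dim probe set of RPL5 alone. The strongest that holds RPSA, also known as the laminin receptor, gave 0.11 (SE 0.10). For RPS16 with 1 other locus the signals were 14.28, 14.76 and 14.85 in controls and 14.34, 14.78 and 14.81 in treated retinas, a difference of 0.012 (SE 0.095), with the retinas of each animal almost level.

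In the rest of the translation machinery, 0 genes of the following lists were called by limma or, after adjustment, by the methods' t-test. Over all 14132 genes, 55.5% were above 0, 5.02% had an unadjusted p under 0.05 and were higher, 3.01% were lower at that p, and 19.3% were higher in 3 of 3 pairs. Among mitochondrial ribosomal protein genes, whose products translate the mitochondrial genome, 57 of 62 were above 0, with a median of 0.18 and pair medians of 0.14, 0.38 and 0.013. Without replicate 2 the median was 0.067. Without adjustment, 8 of 62 passed a p of 0.05 upward and 1 downward, and 26 were higher in 3 of 3 pairs. MRPL57 gave 0.36 (SE 0.10), MRPL20 0.35 (SE 0.11) and MRPL23 0.40 (SE 0.14), all higher in 3 of 3 pairs, and MRPS31 gave −0.41 (SE 0.14) and was lower in all 3, with adjusted p-values of 0.634 to 0.716 in limma. As in the cytosolic set, pair 2 was the highest and pair 3 the lowest. FAU, which encodes a small subunit protein fused to a ubiquitin-like one, gave 0.11 (SE 0.16) with pairs of 0.025, 0.58 and −0.28, and RACK1, a scaffold on the small subunit, gave 0.013 (SE 0.10).

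Translation factors had a median of 0.064 (0.037 without replicate 2), with 22 of 29 above 0, and 3 passed an unadjusted p of 0.05, all upward. BTF3, part of the complex that meets the nascent chain, gave 0.37 (SE 0.11), the initiation factor subunits EIF3I and EIF3M gave 0.28 and 0.24, EIF5B, which joins the subunits, gave 0.26, and the elongation factor EEF2 gave −0.26 (SE 0.23). Signals of BTF3 were 10.58, 10.45 and 10.47 in controls and 10.85, 11.07 and 10.70 in treated retinas, without overlap, yet its adjusted p was 0.655 in limma. Ribosome biogenesis genes had a median of 0.12 (0.066 without replicate 2), with 34 of 40 above 0, and 2 passed an unadjusted p of 0.05 upward and 2 downward. POLR1D, a subunit shared by RNA polymerases I and III, stood at the low end in a regular way. Its signals were 13.04, 13.28 and 13.81 in controls and 12.66, 12.87 and 13.38 in treated retinas, and the pairs differed by −0.38, −0.41 and −0.43. The difference of −0.41 (SE 0.086, unadjusted p = 0.00166) had an adjusted p of 0.366 in limma. The helicase gene DDX10 gave −0.24 (SE 0.090), the assembly factor NOP16 0.37 (SE 0.14) and SBDS, which readies the large subunit for translation, 0.24 (SE 0.094).

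Regulators of ribosomal protein synthesis showed no common direction, with 6 of 12 above 0, a median of 0.0014 and 0 past an unadjusted p of 0.05. MYC, which drives transcription of ribosomal protein genes, read 7.79, 7.70 and 7.10 in controls and 7.96, 8.34 and 7.66 in treated retinas. It was higher in each pair with overlapping groups, for a difference of 0.46 (SE 0.21, adjusted p = 0.751 in limma). The S6 kinase genes RPS6KB1 and RPS6KB2 gave 0.031 (SE 0.091) and −0.26 (SE 0.16), and AKT1 and RHEB, upstream in the same pathway, gave 0.19 and 0.16, both higher in 3 of 3 pairs.

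**Figure D5:**
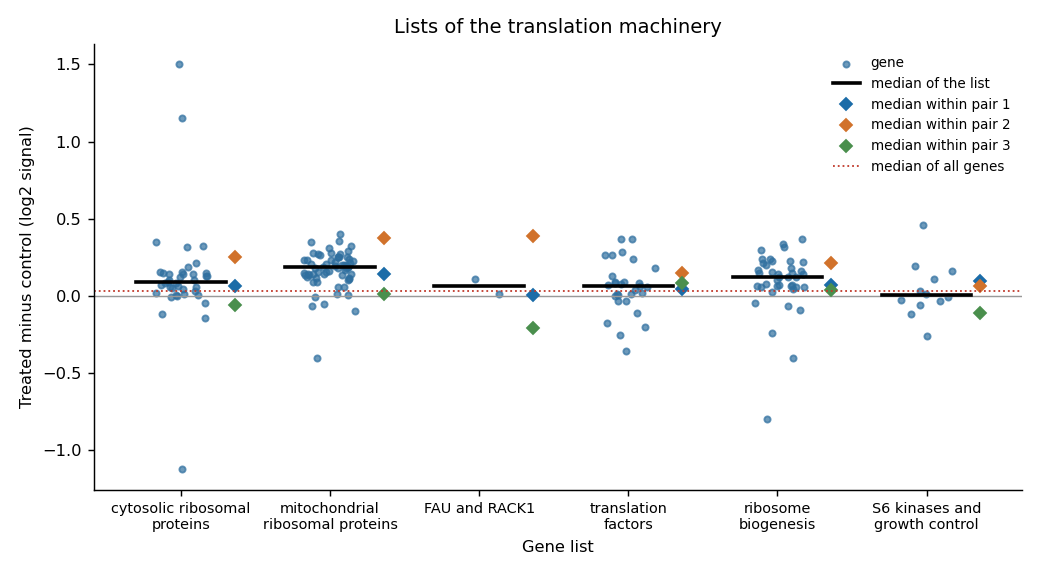
Treated minus control difference (log2) of each gene in 6 lists of the translation machinery, with a black bar at the median of the list, diamonds at the median within each pair and a dotted line at the median of all genes (0.032). The mitochondrial list has the highest median, 0.18 (0.067 without replicate 2), and within both ribosomal protein lists pair 2 lies above pairs 1 and 3.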

How the data were processed

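Arrays of 6 retinas were analysed, 3 of treated and 3 of control retinas. The deposited files hold the MAS 5.0 signal on a log2 scale (MAS5, per the labels; version not given in the sources used here), which scales each array to a common mean, with RNA labelled by a 3′ IVT kit. No count or depth exists for such values, and the number of arrays limits the precision. Control probe sets were left out. The 52024 others entered a linear model (limma 3.58.1, R 4.3.3) with replicate number as a block and a variance prior that follows the mean signal, with Benjamini-Hochberg adjustment over all of them and a threshold of 0.05. Both retinas of an animal form a pair in the study's methods, and deviations from the group means of same-numbered arrays correlated at 0.357, 0.137 and 0.161, against −0.243 to 0.104 for other numbers. As each group holds 3 retinas of the same 3 animals, p-values rest on the treated minus control difference and its variation between animals, combined with the variance prior. With 3 pairs the prior can outweigh the spread seen between animals. RPS28, with pairs of 0.051, 0.089 and 0.053, had an SE of 0.097. The SEs and p-values thus do not measure the spread between these animals alone. Differences in level between animals are taken up by the block.

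Symbols came from the platform annotation, and the members were chosen and named by them as given. For the lists, the markers, the genes next to RPL24 and the set of all genes, symbols were updated by gene identifier. The update used the gene table of T2T-MMU8v2.0, which held all 66 members. No genome or probe sequence was used here. Of all probe sets, 24956 had 1 symbol, 361 several and 26707 none, and those with several name no gene. The brightest probe set, by mean signal over 6 arrays, stands for a gene. Signals of different probe sets are not compared as transcript levels. Named were called members, the 8 largest rises and falls, members whose probe sets lie more than 1 apart, stalk and nucleolar stress genes, paralogs and up to 4 genes per list; RPL9, RPS7, RPS16, RPS28 and the genes next to RPL24 were named after their values were seen. The members and lists were chosen with earlier results of these data known. The code was tested on simulated data, with changes put into probe sets of any signal. The fit recovered 16% of log2 changes of 1 and 46% of log2 changes of 2. Lack of a call therefore does not show that a gene was unchanged. Alternatives were other normalizations, filters on dim probe sets, the fit without the block, a prior without trend, the methods' paired t-test, and leaving out each replicate. Python 3.11.15 and matplotlib 3.10.9 served for summaries and figures.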

Additional observations from a re-analysis of the deposited data

How the results depend on the processing

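The call of RPL24 was the 1 call among the 66 members in each of the normalizations and filters on dim probe sets and with any 1 replicate left out. With no replicate block, with no trend in the variance prior and in the methods' t-test, 0 members passed the adjusted threshold, and no other member did with RPL24 left out of the count (0), an alternative chosen after seeing the data. The median of the 39 genes lay between 0.070 and 0.19 under all alternatives on the full set of arrays, and between −0.012 and 0.16 with 1 replicate left out, negative without replicate 2. With 1 replicate left out, the median of FAU and RACK1 ranged from −0.10 to 0.20 and that of the regulators of growth from −0.030 to 0.060, and the latter was −0.011 after quantile normalization. Centring each array on its median moved all differences up by 0.097, and the medians of translation factors and ribosome biogenesis genes to 0.16 and 0.22. It turned RPL17 to 0.093, RPL19 to 0.089 and RPS9 to 0.049, and quantile normalization turned RACK1 to −0.012. Apart from the even shift of 0.097 under centring, the cause of these changes was not tested.

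Leaving out 1 replicate changed the sign of small differences, none of them called. Over the 3 such fits, RPL17 ranged from −0.074 to 0.044, RPL19 from −0.060 to 0.053, RPL22 from −0.013 to 0.24, RPL23 from −0.056 to 0.25, RPL26 from −0.049 to 0.34, RPL3L from −0.52 to 1.01, RPL7L1 from −0.066 to 0.059, RPLP1 from −0.051 to 0.20 and RPLP2 from −0.0030 to 0.23. In the small subunit, RPS16 ranged from −0.25 to 0.63, RPS18 from −0.061 to 0.058, RPS3 from −0.036 to 0.31, RPS6 from −0.086 to 0.060, RPS9 from −0.15 to 0.059, and the probe set of RPS16 with 1 other locus from −0.012 to 0.040. The probe set of RPL24 with 3 other loci ranged from −0.0061 to 0.21, FAU from −0.13 to 0.30, RACK1 from −0.079 to 0.090 and EEF2 from −0.51 to 0.064. Members under a signal of 10 had a median error over 3 times that of the rest, and no measure of background was used.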
